A study of Mus musculus with 4 samples.

Results

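The 32 genes described here encode the enzymes that carry pyruvate and amino acids into the citric acid cycle and run the cycle itself. They were taken by symbol from the 43346 gene identifiers in the count tables, and all 32 were found and passed the filter on low counts, among 16009 genes tested. They comprise 5 subunits of the pyruvate dehydrogenase complex, 4 kinases and 1 phosphatase that control it, 11 mitochondrial enzymes of the cycle, 4 cytosolic or NADP-linked counterparts, 4 enzymes of anaplerosis and amino acid exchange, and 3 subunits of the branched-chain ketoacid dehydrogenase. RNA was sequenced from whole mouse hearts at P0, the day of birth, in 2 libraries labelled wild type on the ICR strain background and 2 labelled MRTFA/B double knockout on a mixed background. MRTFA and MRTFB are coactivators of serum response factor, and the comparison asks which heart transcripts differ without them. The labels do not name the targeted alleles, any Cre driver, a shared deletion or treatment, or whether hearts were pooled, and strain background and genotype cannot be told apart in any result below. Nothing in the labels says that the 2 libraries of a group came from separate animals, so p-values measure the spread between libraries, which may be technical.

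Pyruvate is committed to oxidation by the pyruvate dehydrogenase complex, which makes acetyl-CoA inside mitochondria and is switched off by phosphorylation through pyruvate dehydrogenase kinases. Citrate synthase joins acetyl-CoA to oxaloacetate, and the cycle then releases carbon dioxide and feeds electrons to the respiratory chain. Around birth the heart turns from glucose and lactate towards fatty acids, and these enzymes serve both fuels. Transaminases, glutamate dehydrogenase and branched-chain ketoacid dehydrogenase pass carbon from amino acids into the same pathway.

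The libraries held between 16175259 and 29460641 counts, and the lowest count of any member in any library was 213. Levels are CPM, counts scaled to the same total over tested genes after TMM composition factors. Differences are log2 fold changes, double knockout over wild type, and SE is their standard error in the edgeR fit. Mrtfa was at 9.06 and 11.1 CPM (wild type) against 3.35 and 2.26 CPM (double knockout) (edgeR adjusted p = 0.120, DESeq2 adjusted p = 1.25e-05). Mrtfb was at 46.9 and 56.8 CPM against 46.0 and 49.6 CPM (edgeR adjusted p = 0.690, DESeq2 adjusted p = 0.860). A count per gene also takes in exons that a deletion would leave, so Mrtfb does not test the label. Cardiomyocyte markers were abundant in every library, and 10 of 10 were tested, with a summed level of 59695 to 60004 CPM in wild type and 50653 to 55463 CPM in double knockout. In whole hearts, fewer cells of a type and less RNA per cell cannot be told apart.

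Both the pyruvate dehydrogenase complex and the mitochondrial cycle lay lower in double knockout hearts, while the kinases and phosphatase that act on the complex had a median log2 fold change of 0.05. Of the 32 members, 25 had negative fold changes (median -0.32), against 48.7% negative and a median of 0.01 over all genes tested. In 19 members both double knockout libraries lay below both wild type libraries, which happened in 25.2% of all genes, and in 2 members they lay above, which happened in 25.8%. No member passed the edgeR threshold of an adjusted p under 0.05 in either direction (0 lower and 0 higher), where 0.0625% of all genes were called lower and 0.0125% higher. At an unadjusted edgeR p under 0.05 there were 14 members lower and 1 higher, against 8.63% and 8.70% of all genes. DESeq2 called 4 members lower (Ogdh, Dlat, Dlst and Pdhb) and 0 higher, against 1.86% and 2.08% of the genes to which it gave an adjusted p. Leaving out double knockout library 1 moved the members' median to -0.19, and leaving out library 2 moved it to -0.40. In those fits 1 library stands for the whole group and is assumed to vary like the others, and edgeR then called 6 lower and 3 higher, and 9 lower and 1 higher. The shares of all genes called in them were 8.13% lower and 9.0% higher, and 4.46% and 3.78%. Without wild type library 1 or 2, 0 members were called, against 0.0121% and 0.0180% of all genes lower and none higher.

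**Figure D1:**
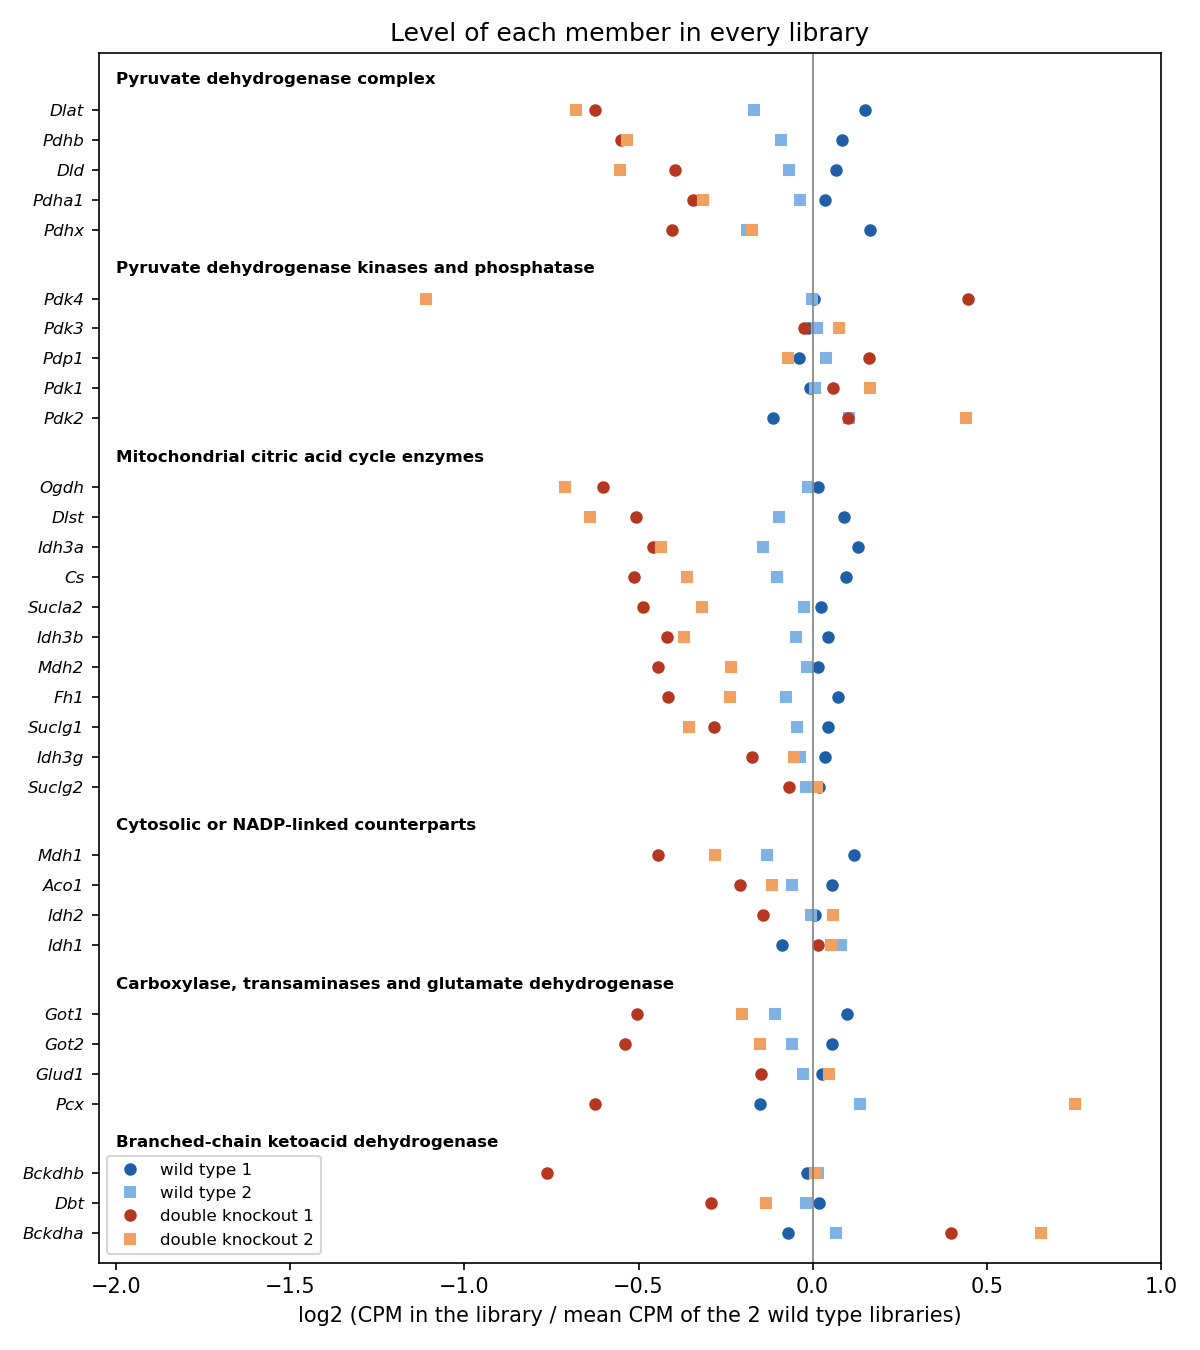
Each row is 1 member and each point 1 library, placed at log2 of its CPM over the mean CPM of the 2 wild type libraries (grey line). Circles are library 1 and squares library 2, blue for wild type and red or orange for double knockout. The double knockout points of 4 of the 5 subunits of the pyruvate dehydrogenase complex (not Pdhx) sit left of both blue points. So do those of 10 of the 11 cycle enzymes (not Suclg2), where 25.2% of all genes tested lie so. Points of the kinases scatter around the line, and Pdk4, Pcx and Bckdhb have the widest gaps between the double knockout libraries.

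Promoters are shown for 3 of the 4 members that DESeq2 called lower (all but Dlst, whose window has no such stretch free of annotated exons) and for Pdk4, the member whose double knockout libraries disagreed most. Each line gives 150 bases just upstream of the annotated exons, 5′ to 3′ on the gene's strand, from RefSeq promoter windows of build GRCm38.p6 (mm10). Capitals mark matches on either strand to CCAAT, the motif of the factor NF-Y, or to GGGCGG, the motif of SP1.
Ogdh (chr11:6291447-6291596, plus strand): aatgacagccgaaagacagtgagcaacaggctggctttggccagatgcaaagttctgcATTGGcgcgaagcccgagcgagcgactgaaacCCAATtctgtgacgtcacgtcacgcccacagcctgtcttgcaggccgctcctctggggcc
Dlat (chr9:50659781-50659930, minus strand): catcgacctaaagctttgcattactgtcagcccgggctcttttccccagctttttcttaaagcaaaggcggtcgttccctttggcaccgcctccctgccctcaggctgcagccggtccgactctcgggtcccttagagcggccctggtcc
Pdhb (chr14:8173026-8173175, minus strand): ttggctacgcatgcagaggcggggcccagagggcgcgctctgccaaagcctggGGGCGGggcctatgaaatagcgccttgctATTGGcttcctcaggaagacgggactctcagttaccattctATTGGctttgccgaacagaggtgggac
Pdk4 (chr6:5496310-5496459, minus strand): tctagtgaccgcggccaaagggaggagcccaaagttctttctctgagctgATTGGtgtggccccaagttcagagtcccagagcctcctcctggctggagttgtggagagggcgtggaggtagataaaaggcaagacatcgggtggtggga
In these stretches Ogdh has 2 CCAAT matches, Pdhb has 2 and a GGGCGG match, Pdk4 has 1 CCAAT match, and Dlat has none of either motif.

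RefSeq windows of 300 bases (250 before and 50 after a start site) were listed for 29 of the 32 members. They were rich in G and C, with a median of 61.0% over 39 windows of those members against 52.7% in all 32851 windows and a median of 20 CpG against 7. The SRF motif, the CArG box, was found in the windows of 0 of 29 members and of 1.81% of 27025 genes, searched on both strands. The full NRF1 motif was in 0 members and 1.07% of genes, and the estrogen-related receptor motif AAGGTCA in 2 members (Ogdh and Got1; 6.90%) and 5.38% of genes. Its longer form TCAAGGTCA, which holds AAGGTCA, was in 0 members and 0.466% of genes. The GABP motif CCGGAAGT was in 1 member (Dlst; 3.45%) and 4.31% of genes. Motifs searched after those matches were seen were GGGCGG, in 65.5% of members and 38.2% of genes, CCAAT, in 58.6% and 41.1%, the NRF1 core TGCGCA in 17.2% and 8.79%, and the FOXO motif GTAAACA, in 0 members and 4.05%. A match describes letters only.

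The pyruvate dehydrogenase complex, the gate for pyruvate, lay lower in all 5 subunits, where 48.7% of all genes tested had negative fold changes. Its median was -0.47, and ratios of double knockout to wild type ran from 0.636 to 0.821. Dlat, the acetyltransferase core (E2; chromosome 9, 50634633 to 50659780), was at 476 and 382 CPM (wild type) against 278 and 268 CPM (double knockout). The double knockout libraries lay close together and below both wild type libraries, which themselves differed by more. The log2 fold change was -0.65 (SE 0.14; edgeR adjusted p = 0.152). DESeq2 gave adjusted p = 0.0123, and over 16 alternative settings the adjusted p ran from 8.72e-05 to 0.971. Pdha1, the catalytic alpha subunit of E1 on the X chromosome (160122209 to 160138413), was at 812 and 773 CPM (wild type) against 624 and 637 CPM (double knockout). Its groups did not overlap (log2 fold change -0.33, SE 0.11; edgeR adjusted p = 0.232). Part of Pdha1, 16.1% of its exon bases, overlaps Map3k15 on the other strand, which had 24 to 63 counts per library. Dld, the dihydrolipoamide dehydrogenase (E3) that this complex shares with the other 2-oxoacid dehydrogenases, was at 764 and 695 CPM against 555 and 497 CPM (-0.47, SE 0.12; edgeR adjusted p = 0.176). Pdhx, the protein that binds E3 to the core, was at 137 and 107 CPM (wild type) against 92.0 and 108 CPM (double knockout), so its groups overlapped.

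Pdhb, the beta subunit of E1 (chromosome 14, 8165996 to 8173025), needs a caution of its own. It was at 281 and 249 CPM (wild type) against 181 and 183 CPM (double knockout). The difference was -0.54 on the log2 scale (SE 0.11; edgeR adjusted p = 0.148; DESeq2 adjusted p = 0.0218, range over 16 settings 0.00174 to 0.971). A processed pseudogene, Gm6123, matches its transcript at 97.0% over 1079 bases and held 135 and 112 CPM (wild type) against 121 and 123 CPM (double knockout). The treatment of reads with several matches is unknown here. With the counts of both summed, a setting chosen after seeing the data, the log2 fold change of Pdhb was -0.35 (SE 0.12; edgeR adjusted p = 0.231) and the DESeq2 call was lost (adjusted p = 0.231). A stretch of 90 bases that is coding in Pdhb, and its match in Gm6123, are given 5′ to 3′ in mm10. They show how close the pair is, with the 2 differing bases in capitals.
Pdhb (chr14:8171441-8171530, minus strand): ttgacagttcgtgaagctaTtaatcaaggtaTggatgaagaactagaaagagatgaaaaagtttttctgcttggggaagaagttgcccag
Gm6123 (chr1:4771215-4771304, plus strand): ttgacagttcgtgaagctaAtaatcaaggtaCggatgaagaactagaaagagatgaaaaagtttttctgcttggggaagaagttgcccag
The longest run of identical bases between Pdhb and Gm6123 is 171.

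Among the cycle enzymes of the member list, Ogdh and Dlst of the 2-oxoglutarate dehydrogenase complex had the most negative fold changes. Sdhb of succinate dehydrogenase, outside that list, was at -0.57 as well, and differences between genes were not tested. Ogdh, its E1 subunit (chromosome 11, 6291633 to 6356642), was at 808 and 793 CPM (wild type) against 527 and 488 CPM (double knockout), a ratio of 0.634. Each group was tight and the gap between groups was wider than the spread within either. The log2 fold change was -0.66 (SE 0.11; edgeR adjusted p = 0.131), and Ogdh ranked 150 of 16009 genes by unadjusted p. DESeq2 gave adjusted p = 6.82e-04, and the range over 16 settings was 9.26e-05 to 0.971. Dlst, the succinyltransferase core (E2) of the same complex on chromosome 12 (85110833 to 85134845), was at 724 and 635 CPM against 478 and 436 CPM (-0.57, SE 0.13; edgeR adjusted p = 0.155). For Dlst, DESeq2 gave adjusted p = 0.0172, within a range of 0.001 to 0.971 over the settings. The highest values in these ranges came without wild type library 1.

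**Figure D2:**
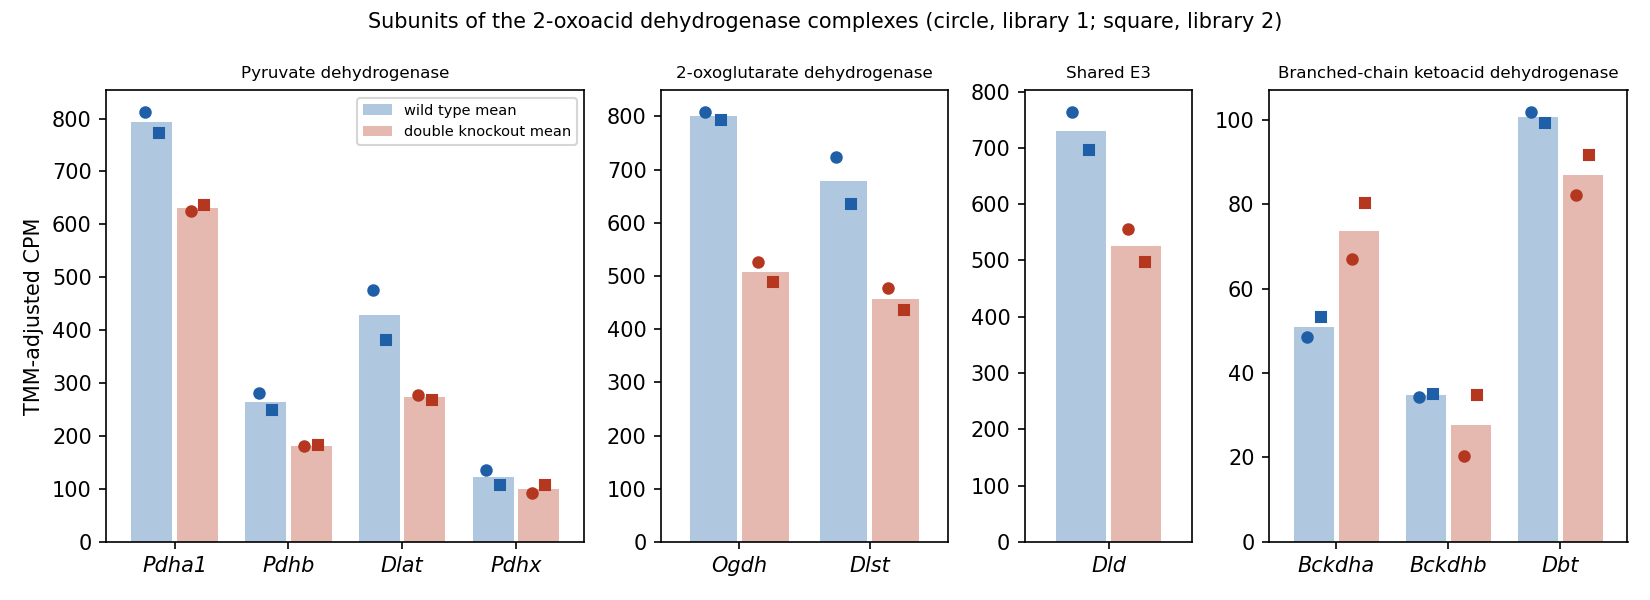
TMM-adjusted CPM of the subunits of 3 complexes and their shared E3; bars are group means (n = 2), circles library 1 and squares library 2, and each panel has its own axis from 0. In 6 of the 7 genes of the first 3 panels both red points lie below both blue points, the exception being Pdhx. Bckdha in the last panel has both red points above. Over all genes tested, 25.2% lie below in this way and 25.8% above.

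The citrate-to-succinate steps lay lower by similar amounts, with exceptions in single subunits. Cs, citrate synthase, which starts the cycle, was at 1502 and 1311 CPM (wild type) against 986 and 1095 CPM (double knockout) (log2 fold change -0.44, SE 0.13; edgeR adjusted p = 0.203). Isocitrate dehydrogenase 3 is the NAD-linked enzyme of the cycle, with a catalytic alpha subunit and 2 others. Its subunit Idh3a was at 876 and 725 CPM against 583 and 592 CPM, and Idh3b at 492 and 461 CPM against 357 and 369 CPM. Idh3g, the gamma subunit on the X chromosome, was at 329.5 and 314 CPM against 285 and 310.2 CPM, so the nearest libraries of the groups almost met (log2 fold change -0.11, SE 0.11; edgeR adjusted p = 0.645). The share of Idh3a in the 3 subunits, by counts per kb of exons, was 39.4% and 36.3% in wild type and 35.4% and 34.4% in double knockout (exact permutation test over 4 libraries, two-sided p = 0.333, the smallest 2 against 2 can give; adjusted 1 over 9 shares tested).

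Succinyl-CoA synthetase, the step that makes ATP or GTP, had 2 subunits with non-overlapping groups and 1 with overlapping groups, none past the threshold. Sucla2, the ATP-forming beta subunit (chromosome 14, 73525319 to 73596142), was at 523 and 505 CPM (wild type) against 367 and 412 CPM (double knockout), a ratio of 0.758 (log2 fold change -0.40, SE 0.12; edgeR adjusted p = 0.193). Suclg1, the alpha subunit common to both forms, was at 327 and 308 CPM against 261 and 248 CPM. Suclg2, the GTP-forming beta subunit, was at 68.6 and 66.8 CPM against 64.6 and 68.3 CPM, so the groups overlapped (-0.03 on the log2 scale, SE 0.10; edgeR adjusted p = 0.914). Within each library the share of Sucla2 in the 2 beta subunits, per kb of exons, was 89.8% and 89.8% in wild type and 86.8% and 87.5% in double knockout (exact permutation test, two-sided p = 0.333; adjusted 1 over 9 shares). These groups do not overlap, and the within-library share does not depend on scaling between libraries.

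The Suclg2 level is uncertain, since the processed pseudogene Gm15163 on the X chromosome matches it at 98.9% over 1302 bases and held 74.1 and 76.2 CPM (wild type) against 71.1 and 77.3 CPM (double knockout). The pseudogene was thus counted about as often as the gene. With the counts summed, Suclg2 was at 143 and 143 CPM against 136 and 146 CPM. A stretch of 90 bases in mm10 that is coding in Suclg2, with its match in Gm15163, shows the pair. The only difference in it is in capitals, and the longest identical run is 231 bases.
Suclg2 (chr6:95595661-95595750, minus strand): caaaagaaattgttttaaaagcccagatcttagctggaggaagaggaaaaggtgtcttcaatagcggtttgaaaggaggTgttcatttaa
Gm15163 (chrX:157017209-157017298, minus strand): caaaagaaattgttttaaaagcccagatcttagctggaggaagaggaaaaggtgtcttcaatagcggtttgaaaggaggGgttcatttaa

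The last steps of the cycle lay lower too. Fh1, fumarase, was at 292 and 263 CPM (wild type) against 208 and 235 CPM (double knockout), and Mdh2, mitochondrial malate dehydrogenase, at 878 and 859 CPM against 638 and 738 CPM. Their log2 fold changes were -0.32 and -0.34, and the edgeR adjusted p was 0.263 and 0.261. In all, 11 of 11 cycle enzymes had negative fold changes (median -0.39), against 48.7% of all genes tested. In 10 of them both double knockout libraries lay below both wild type libraries, against 25.2% of all genes. Over 16 alternative settings, 10 or 11 of the 11 stayed negative and the median ran from -0.45 to -0.32, while all 5 subunits of the pyruvate dehydrogenase complex stayed negative in each.

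The enzymes that regulate the pyruvate dehydrogenase complex were mostly level or slightly higher, and the difference from the complex itself was not tested. The group of 4 kinases and 1 phosphatase had a median of 0.05, with 1 negative member. Pdk1, a kinase induced by hypoxia, was at 333 and 336 CPM (wild type) against 348 and 376 CPM (double knockout), higher in both but by little (log2 fold change 0.11, SE 0.11; edgeR adjusted p = 0.635). Pdk2, the widely expressed kinase, was at 144 and 167 CPM against 167 and 211 CPM, and its groups overlapped (0.28, SE 0.15; edgeR adjusted p = 0.405). Pdk3 was at 57.3 and 58.3 CPM against 56.8 and 60.9 CPM, and the phosphatase Pdp1, which reverses the kinases, at 59.7 and 62.9 CPM against 68.6 and 58.4 CPM.

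Pdk4, the kinase that rises with fasting and fatty acid use (chromosome 6, 5483351 to 5496309), separated the double knockout libraries from each other. The wild type libraries had 487 and 485 CPM of it, and it was at 661 CPM in double knockout library 1 and at 225 CPM in library 2, above and below both wild type values. The log2 fold change was -0.13 (SE 0.50; edgeR adjusted p = 0.920). It became 0.44 when double knockout library 2 was left out and -1.11 when library 1 was, with edgeR adjusted p = 0.0458 and 7.16e-05, and adjusted p up to 0.993 over the 16 settings. By counts per kb, Pdk4 made up 55.6% and 53.7% of the 4 kinases in wild type, 61.1% in double knockout library 1 and 31.6% in library 2. In library 2, Pdk2 took 32.9% and Pdk1 23.8%, against 17.1% and 14.5% in library 1. No share of a kinase gave an exact permutation p below 1 (two-sided, 4 libraries).

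Pdk4 is a target of PPAR alpha, the fatty acid sensing nuclear receptor, and 20 other targets of it were set beside Pdk4. In 19 of the 20, double knockout library 2 lay below library 1, with a median ratio of 0.456, and in 19 it lay below both wild type libraries. Library 1 lay below both wild type libraries in 8 and above them in 6. The list's median was -0.06 in library 1 and -1.24 in library 2 against the wild type mean, and 0 of 20 passed the edgeR threshold (2 lower at an unadjusted p under 0.05, 1 called by DESeq2). The medians of all genes tested in these libraries were 0.008 and 0.002. Calls with a double knockout library left out are not given for this list, since 1 library then stands for the whole group. Hadha, of mitochondrial beta-oxidation, was at 1827 and 1687 CPM in wild type, 1737 CPM in library 1 and 791 CPM in library 2, and the fatty acid carrier Cd36 at 1839 and 1515 CPM, then 1515 and 996 CPM. Of the 32 members, 7 were lower in library 2 than in library 1. In 3 of the 32 (Pdk4, Pcx and Bckdhb) these libraries differed by more than 0.5 on the log2 scale. No member differed by that much between the wild type libraries (0 of 32). The shares of all genes tested with such orders or gaps are not given here, so these counts have no background beside them. What sets the double knockout libraries apart was not tested.

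**Figure D3:**
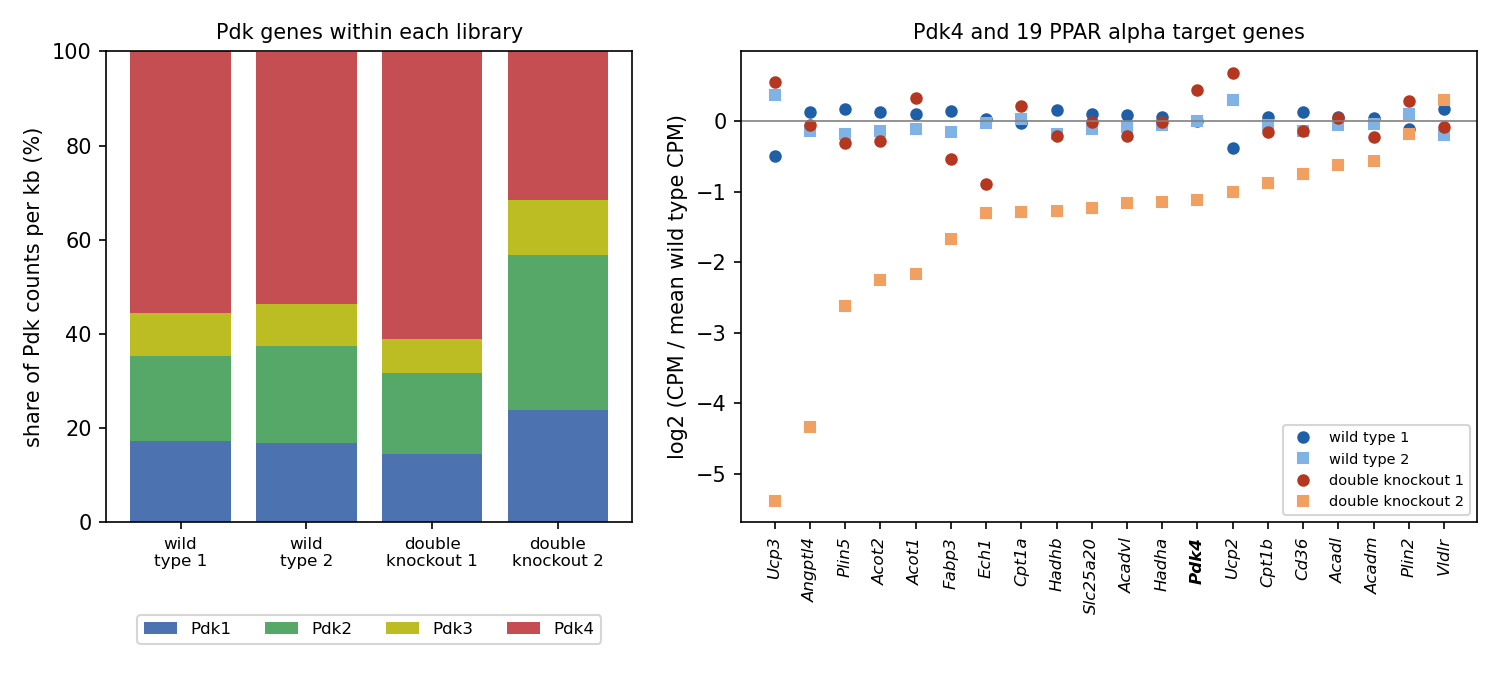
Left, the share of each Pdk gene in the 4 kinases by counts per kb of exons, 1 bar per library; right, log2 of CPM over the wild type mean for Pdk4 (bold) and 19 of the PPAR alpha target genes, 1 point per library, ordered by double knockout library 2. Pdk4 takes 31.6% of the kinase counts in double knockout library 2 and 53.7% to 61.1% in the other libraries, and the orange squares lie below zero for every gene plotted but Vldlr.

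The cytosolic and NADP-linked counterparts had a median log2 fold change of -0.10. Mdh1, the cytosolic malate dehydrogenase of the malate-aspartate shuttle, was at 2249 and 1892 CPM (wild type) against 1523 and 1705 CPM (double knockout), or -0.36 on the log2 scale (SE 0.14; edgeR adjusted p = 0.278). Idh2, the mitochondrial NADP-linked isocitrate dehydrogenase that supplies reducing power, was at 1619.8 and 1606 CPM against 1462 and 1681 CPM, so the groups overlapped (-0.04, SE 0.13; edgeR adjusted p = 0.906). Idh1, its cytosolic counterpart, was at 89.1 and 100.2 CPM against 95.7 and 98.3 CPM. Aco1, the cytosolic aconitase that also serves as an iron sensor, was at 79.4 and 73.3 CPM against 66.0 and 70.4 CPM. The split of malate dehydrogenase between cytosol and mitochondria overlapped between groups, with Mdh1 at 78.0% and 75.4% per kb in wild type and 76.8% and 76.2% in double knockout, and Got1 at 73.7% and 72.4% against 73.5% and 72.3% of the 2 aspartate transaminases. Idh1 made up 4.89% and 5.50% of the NADP-linked pair in wild type and 5.76% and 5.18% in double knockout. The exact permutation p was 0.667 or 1 for these 3 shares (two-sided, 4 libraries).

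Of the enzymes that exchange carbon with amino acids, the aspartate transaminases lay lower, while the groups overlapped for glutamate dehydrogenase. Got1, the cytosolic form, was at 412 and 357 CPM (wild type) against 271 and 334 CPM (double knockout), and Got2, the mitochondrial form, at 280.1 and 259 CPM against 186 and 243 CPM. Both had non-overlapping groups, with library 1 much lower than library 2 among the double knockouts (log2 fold changes -0.35 and -0.33; edgeR adjusted p = 0.306 and 0.341). Got2 has a near-identical pseudogene, Got2-ps1 (99.1% over 1293 bases), at 3.07 to 5.64 CPM, and summing the pair left the log2 fold change at -0.34. Glud1, which turns glutamate into 2-oxoglutarate, was at 142 and 137 CPM against 126 and 144 CPM (-0.05, SE 0.11; edgeR adjusted p = 0.862). Pcx, pyruvate carboxylase, which refills oxaloacetate, had the lowest level of all members. It was at 10.4 and 12.7 CPM in wild type, 7.51 CPM in double knockout library 1 and 19.5 CPM in library 2, on either side of the wild type pair (0.20, SE 0.47; edgeR adjusted p = 0.856).

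The branched-chain ketoacid dehydrogenase, which breaks down leucine, isoleucine and valine, is built on the same plan as the pyruvate and 2-oxoglutarate complexes, and none of its 3 subunits passed the threshold. Bckdha, the E1 alpha subunit (chromosome 7, 25629946 to 25658981), was at 48.5 and 53.4 CPM (wild type) against 67.0 and 80.3 CPM (double knockout), the one member at an unadjusted p under 0.05 in the higher direction. Its log2 fold change was 0.53 (SE 0.13; edgeR adjusted p = 0.163; DESeq2 adjusted p = 0.0830; range over 16 settings 0.00184 to 0.971). Of its exon bases, 61.7% overlap B3gnt8 on the other strand, which held 27 to 53 counts per library. Bckdha itself held 1313 to 1901 counts per library. Whether strand was used in counting is unknown here, so reads in the bases shared with B3gnt8 cannot be assigned, and their effect on Bckdha was not tested. Bckdhb, the E1 beta subunit, was at 34.3 and 35.0 CPM in wild type, 20.5 CPM in double knockout library 1 and 34.9 CPM in library 2. Only library 1 stood apart, and the log2 fold change moved from -0.33 to 0.01 without it and to -0.76 without library 2. Dbt, the E2 core, was at 102 and 99.3 CPM against 82.2 and 91.6 CPM (-0.21, SE 0.11; edgeR adjusted p = 0.375).

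Per length of merged exons, the members spanned a wide range of levels, and only this scale allows genes to be ordered. Mdh1 was highest at a wild type mean of 807 CPM per kb, followed by Idh2 at 623 CPM per kb. In double knockout hearts the 2 lay at 629 and 607 CPM per kb, where library 2 had 664 and 650 and library 1 had 593 and 565. Mdh2 and Cs, at 244 and 243 CPM per kb in wild type, could not be ordered beyond their spread. Pdha1 was at 212 CPM per kb, about level with Dld at 198 and above Dlat at 87.8, Pdhb at 68.7 and Pdhx at 31.0. Pdk4 at 138 CPM per kb exceeded Pdk2 at 49.1, Pdk1 at 43.0 and Pdk3 at 22.6 in wild type, but in double knockout library 2 Pdk4 was at 64.0 and Pdk2 at 66.6. Pcx was lowest, at 2.44 CPM per kb.

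**Figure D4:**
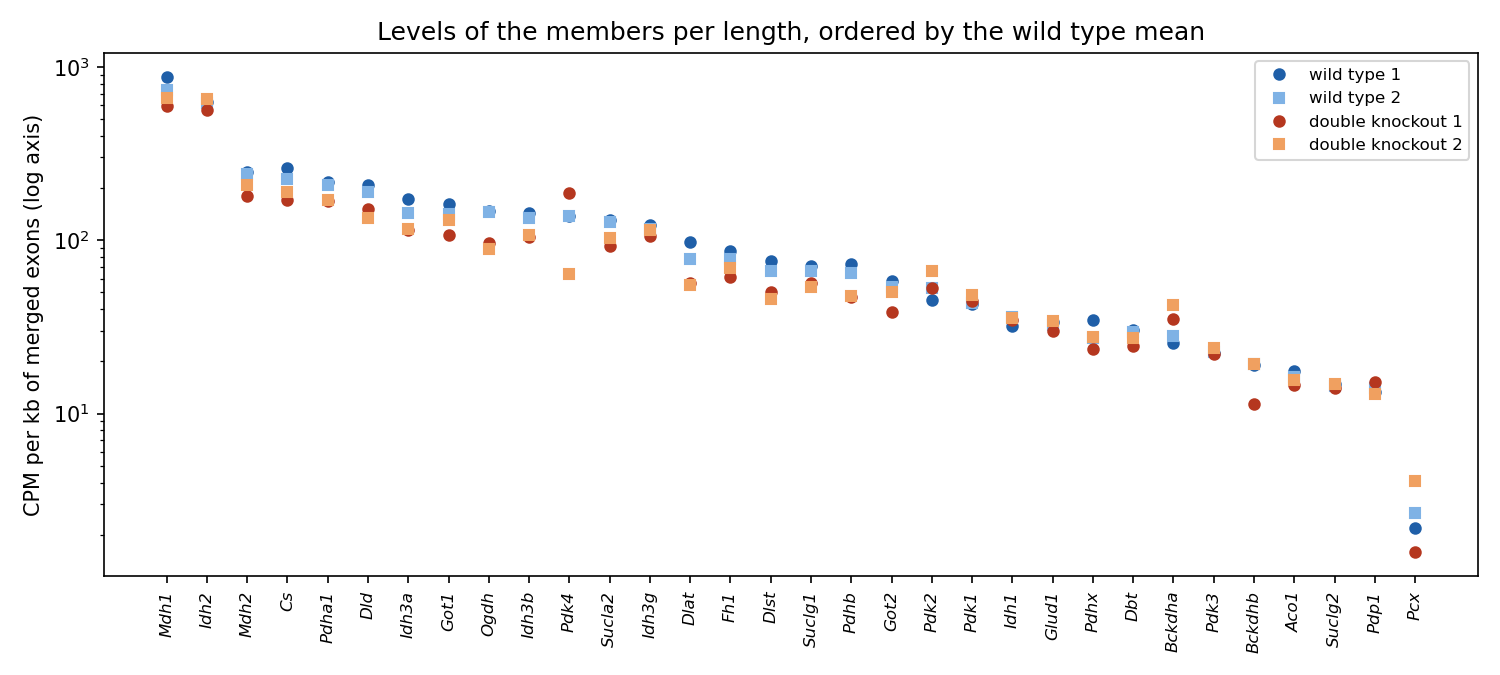
CPM per kb of merged exons for each member on a log axis, ordered by the wild type mean, with 1 point per library (blue wild type, red and orange double knockout). Levels run from 807 (Mdh1) to 2.44 (Pcx) in wild type, and most differences between groups are small against the differences between genes.

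Other genes of the cycle and of pyruvate entry, from a list made with the design, lay lower in 14 of 18, with a median of -0.24; edgeR called 0 in either direction, with 7 lower and 1 higher at an unadjusted p under 0.05, and DESeq2 called 4 lower. Sdha, the flavoprotein of succinate dehydrogenase, was at 1503 and 1456 CPM (wild type) against 1026 and 1020.0 CPM (double knockout). Genes chosen after their values were seen were Mpc2, a subunit of the mitochondrial pyruvate carrier, at 116 and 98.3 CPM against 63.5 and 64.4 CPM, and Ogdhl, a relative of Ogdh, at 6.70 and 7.15 CPM against 2.82 and 1.53 CPM. The DESeq2 adjusted p was 0.00189 for Mpc2 and 0.00265 for Ogdhl, where edgeR gave 0.121 and 0.141, and the other DESeq2 calls were Sdha and Sdhb.

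Outside the cycle, the pathway lists were mixed. Of 21 other genes of branched-chain amino acid breakdown, 13 were negative (median -0.15); edgeR called 0 (3 lower and 2 higher at an unadjusted p under 0.05) and DESeq2 called 1 lower and 1 higher. Acat1, the thiolase that ends isoleucine and ketone breakdown, was at 578 and 553 CPM (wild type) against 438 and 433 CPM (double knockout), while Aldh6a1, of valine breakdown, was at 154 and 154 CPM against 184 and 285 CPM. The DESeq2 calls were Ivd, the dehydrogenase of leucine breakdown, at 185 and 200.4 CPM against 104 and 139 CPM, and Ppm1k, the phosphatase that activates the ketoacid dehydrogenase, at 88.4 and 99.6 CPM against 129 and 183 CPM. Of 16 tested genes of anaplerosis and glutamate exchange, 9 were negative (median -0.12; edgeR called 0, DESeq2 0, and 4 lower and 1 higher at an unadjusted p under 0.05). Glul, glutamine synthetase, was at 124 and 123 CPM in wild type, 181 CPM in double knockout library 1 and 581 CPM in library 2. Ketone genes were lower in 4 of 5, with a median of -0.47 (edgeR and DESeq2 called 0, and 2 were lower at an unadjusted p under 0.05). Oxct1, the enzyme that lets the heart burn ketones, was at 521 and 503 CPM against 264 and 404 CPM, and Slc16a1, a monocarboxylate carrier, at 407 and 285 CPM against 285 and 320.4 CPM.

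Levels of markers of the cells in the heart are given beside these results, and their part in them was not tested. Some markers, such as Acta2 and Cnn1 and several contractile genes of the cardiomyocyte list, are themselves known targets of SRF. Their levels, and a scale set by them, may differ without the SRF coactivators at the same number of cells, which was not tested. Cardiomyocyte markers had a median of -0.22, with 8 of 10 negative, among them Myh6 (16361 and 17163 CPM against 14825 and 12968 CPM) and Ttn (9727 and 8738 CPM against 7514 and 7421 CPM). In 7 of these 10 markers both double knockout libraries lay below both wild type libraries, and in 1 above. The shares of all genes were 25.2% and 25.8%, and 19 of the 32 members lay below. Set against the summed cardiomyocyte markers of the same library, a scale chosen after seeing the data, the mitochondrial cycle enzymes summed to 11.4% and 10.45% in wild type and 8.57% and 9.86% in double knockout. The pyruvate dehydrogenase complex summed to 4.12% and 3.70% against 3.12% and 3.34%. Both groups stayed apart on this scale, with ratios of 0.844 and 0.827, nearer to 1 than the ratios of 0.746 and 0.732 of the summed CPM without it. All 32 members together summed to 25.7% and 23.8% against 21.1% and 23.9%, which overlapped. Smooth muscle and pericyte markers had a median of -0.34 (8 of 8 negative; summed level 2610.2 to 4050 CPM in wild type and 1382 to 1547 CPM in double knockout; without Acta2, 1088 to 1142 CPM and 942 to 1012 CPM), endothelial markers 0.04 (4 of 8 negative; 1373 to 1433 CPM and 1365 to 1404 CPM), and fibroblast markers -0.13 (5 of 8; 4146 to 4436 CPM and 3455 to 4454 CPM). Acta2, smooth muscle actin, was at 2962 and 1468 CPM against 535 and 439 CPM, and DESeq2 called it and Cnn1 lower. Epicardial markers had a median of 0.09 (2 of 6 negative; 166 to 172 CPM and 176 to 220.1 CPM) and macrophage markers 0.36 (2 of 9 negative; 84.8 to 88.1 CPM and 107 to 111 CPM). Red cell genes had a median of 0.04 in 9 tested (554 to 753 CPM and 464 to 807 CPM). Among them Hbb-bt was at 42.0 and 26.2 CPM against 6.45 and 7.77 CPM, and DESeq2 called it lower. In the other marker lists DESeq2 called Tbx18 (epicardial) and Cd163 (macrophage) higher, and no gene of the cardiomyocyte, endothelial or fibroblast lists. From the brown fat list it called Cox7a1 lower (19.8 and 18.7 CPM in wild type against 10.2 and 11.4 CPM in double knockout). Cox7a1 is also the heart and muscle form of a cytochrome oxidase subunit, so in whole hearts its level does not mark brown fat. Of 7 liver genes 1 passed the filter, and of 5 brown fat genes 2 did, so neither tissue's defining genes Alb or Ucp1 were tested.

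**Figure D5:**
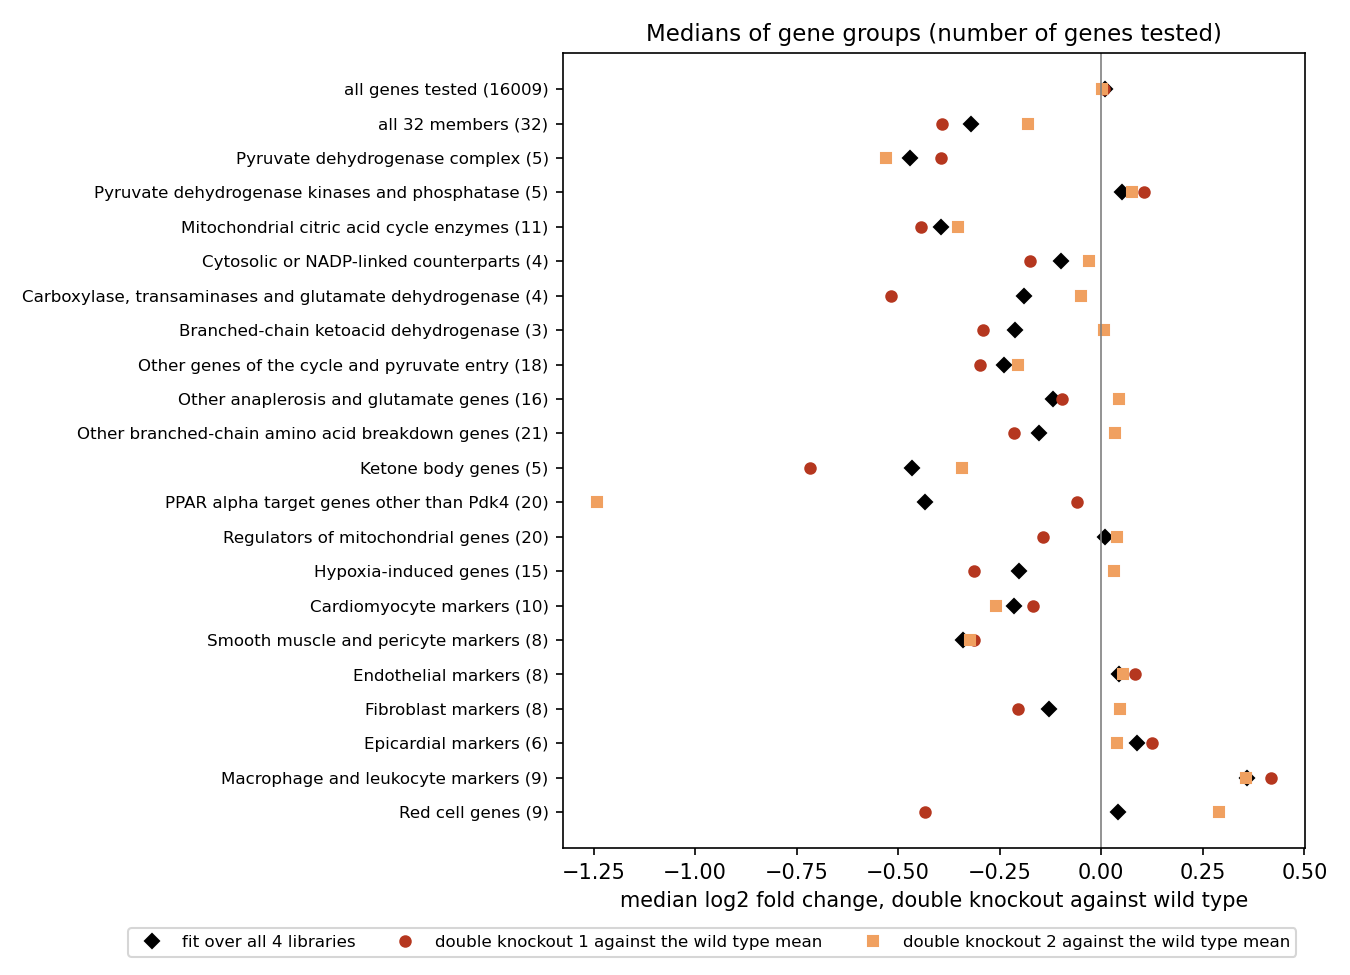
Median log2 fold change, double knockout against wild type, of the role groups of the members and of the other gene lists, with the number of genes tested in parentheses; diamonds come from the fit over 4 libraries, circles and squares compare double knockout library 1 or 2 alone with the wild type mean. The pyruvate dehydrogenase complex and the cycle enzymes lie left of zero in both libraries, whereas the PPAR alpha targets are near zero in library 1 (-0.06) and at -1.24 in library 2.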

How the data were processed

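RNA-seq of P0 mouse hearts gave 4 libraries, 2 per genotype, with 43346 gene identifiers each and 0 rows that name no gene. The deposited values are raw read counts per gene, made by the authors with HTSeq on mm10, per the submitters' processing notes, which also name DESeq 1.10.1. The sources used here do not give the aligner, annotation release, strand setting or treatment of reads with several matches. Symbols, positions and merged exon lengths came from GENCODE M21 (mm10), which matched 42462 identifiers and may differ from the authors' annotation.

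The main test was edgeR 4.0.16 (R 4.3.3): filterByExpr defaults, TMM factors, robust quasi-likelihood fit, genotype as the only term, and Benjamini-Hochberg adjustment over 16009 genes with a threshold of 0.05. Alternatives were other scalings and filters, DESeq2 1.42.0, limma-voom (limma 3.58.1), a replicate block, removal of mitochondrial and red cell genes, and each library left out. The fits were tested on simulated data in which 200 genes changed by 2-fold or more, with the same dispersion for every gene. Every member's fold change in the main fit was smaller than that, so the simulation does not cover changes of their size. Near-identical copies were transcripts at least 95% identical over 200 bases (BLAST+ 2.17.0). A count of 3 corresponds to 0.106 to 0.184 CPM, and this floor covers counting error only.

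The members and gene lists were chosen with earlier results of these data known. All members are named. From each list the rule took up to 4 genes past the threshold or, with none, the 2 with the highest mean CPM. Cell marker lists other than that of cardiomyocytes are given mainly as counts, medians and sums. Values per library are given for all members rather than only for those the rule asked for, some genes that the rule took are not reported here, and the planned protein sequences of the Pdk genes were not used here.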

Additional observations from a re-analysis of the deposited data

How the results depend on the processing

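Each group had 2 libraries, and the members' counts were all at or above 213. The edgeR count of all genes, 10 lower and 2 higher of 16009 tested, was 785 and 729 of 24928 tested with no filter. It was 2 and 0 with the replicate block, and 3 and 0 with a crossed replicate block. DESeq2 called 251 and 281 of the 13526 genes to which it gave an adjusted p. Higher calls numbered 1 with RLE or upper-quartile factors, the stricter filter, no robust estimation or limma-voom. Leaving out 1 library gave 2 to 1327 lower and 0 to 1468 higher genes. Members called were 0 in the main fit, 9 lower and 1 higher with no filter, 4 lower in DESeq2, and 0 to 9 lower and 0 to 3 higher with 1 library left out. The calls came without double knockout library 1 (6 lower, 3 higher) or 2 (9 lower, 1 higher). The cause was not tested. The members' median ran from -0.40 to -0.19 with 1 library left out, and was -0.25 with no composition factors, a scaling that moved the median of all genes to 0.08. Of the members, 23 kept their sign in all 16 alternatives, and Pdk3, Pdk4, Pdp1, Suclg2, Idh1, Idh2, Pcx, Glud1 and Bckdhb did not. The Pdk4 log2 fold change became -1.11 when double knockout library 1 was left out and 0.44 when library 2 was. Members with negative fold changes numbered 22 with no composition factors.

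The labels do not say whether same-numbered libraries were paired. The correlation across genes of library 2 minus library 1 between the groups was -0.10, which cannot decide whether they shared a litter, day or preparation. The replicate block called 0 members, as did a crossed block chosen after seeing the data.

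The double knockout minus wild type difference in within-library shares, in percentage points, was tested by exact permutation only, which cannot go below 0.333 (two-sided) with 2 libraries against 2. Without double knockout library 2 it was -2.47 for Pdk1, -2.28 for Pdk2, -1.72 for Pdk3 and 6.47 for Pdk4, each opposite in sign to the full value of 2.17, 5.59, 0.55 and -8.31. With 1 library left out, the ranges were -2.47 to 6.81 for Pdk1, -2.28 to 13.47 for Pdk2, -1.72 to 2.81 for Pdk3, -23.09 to 6.47 for Pdk4, -2.98 to -2.30 for Sucla2, -4.51 to -1.40 for Idh3a, -0.73 to 0.55 for Got1, -1.52 to 1.17 for Mdh1 and -0.036 to 0.58 for Idh1.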

Other observations

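The remaining lists hold regulators of mitochondrial genes and genes induced by hypoxia. Of 20 regulators of mitochondrial genes, 10 were negative (median 0.01; edgeR called 0, with 3 lower and 1 higher at an unadjusted p under 0.05, and DESeq2 called 1 higher, Foxo3). Hif1a, the hypoxia factor, was at 363 and 297 CPM (wild type) against 288 and 318 CPM (double knockout). Ppargc1a, a coactivator of mitochondrial genes, was at 322 and 278 CPM in wild type, 197 CPM in double knockout library 1 and 434 CPM in library 2. Chosen after their values were seen, Ppargc1b, a related coactivator, was at 31.4 and 28.7 CPM against 21.8 and 17.9 CPM, and Perm1, a muscle regulator of oxidative genes, at 156 and 147 CPM against 113 and 72.2 CPM, with edgeR calling neither. Klf15, a factor that drives amino acid breakdown genes, also chosen after its values were seen, was at 21.2 and 12.7 CPM in wild type, 17.5 CPM in double knockout library 1 and 69.6 CPM in library 2.

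Of 15 genes known to be induced by hypoxia, 10 were negative (median -0.20; edgeR called 0, with 3 lower and 3 higher at an unadjusted p under 0.05, and DESeq2 called 1 higher, Bnip3). Ldha, which turns pyruvate into lactate, was at 739.9 and 689 CPM (wild type) against 483 and 571 CPM (double knockout), and Vegfa at 292 and 248 CPM against 217 and 229.8 CPM.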
